A study of Mus musculus with 5 samples.

Results

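The 10 genes described here encode the core of cyclic GMP (cGMP) signalling by nitric oxide and by natriuretic peptides: Nos3, Ddah2, Gucy1a1, Gucy1b1, Npr1, Npr2, Npr3, Prkg1, Pde5a and Pde2a. They were found by gene symbol among the 49315 genes of the count table, and all 10 passed the filter on low counts that left 18727 genes for testing. RNA-seq of polyadenylated RNA had been made from lung endothelial cell isolates of mice. The groups were 2 libraries labelled TET2KO, from animals in which endothelial cells alone carried the TET2 knockout, and 3 libraries labelled WT, from wild-type mice. Every animal in both groups was infused with angiotensin II, a peptide hormone that narrows vessels and raises blood pressure, for 28 days, so neither group shows the pathway without the hormone. TET2 is an enzyme that oxidises 5-methylcytosine in DNA. Age, sex, strain, the Cre driver, the deleted exons and the isolation method were not given in the sources used here.

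Nitric oxide made by endothelial nitric oxide synthase (Nos3) activates soluble guanylyl cyclase, a heterodimer of an alpha and a beta subunit (Gucy1a1 and Gucy1b1) that makes cGMP. Natriuretic peptides reach the same second messenger through Npr1 and Npr2, membrane receptors that are themselves guanylyl cyclases, whereas Npr3 removes the peptides from the extracellular space. cGMP activates the kinase Prkg1 and is broken down by phosphodiesterases such as Pde5a and Pde2a. In the lung this pathway relaxes pulmonary vessels and opposes angiotensin II, and Pde5a is the target of drugs used in pulmonary hypertension.

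Total counts were 31239463 and 30035235 in the TET2KO libraries and 27346804 to 35440257 in the WT libraries. Tet2, the targeted gene, was at 139 and 162 CPM (counts relative to the TMM-scaled library total) in the libraries labelled TET2KO and at 141, 174 and 131 CPM in those labelled WT, a log2 fold change of 0.02 ± 0.19 (SE; edgeR adjusted p = 0.987). The count over the whole gene therefore did not separate the groups, and every direction below is between libraries as labelled. WT replicate 2 stood apart: it was at 90.8 on the first principal component (57.5% of the variance), against -50.9 to 7.71 for the other 4 libraries. The authors' deposited comparison did not follow the labels for WT replicate 3. Its log2 fold changes equalled the log2 ratio of the mean of TET2KO replicates 1 and 2 and WT replicate 3 over the mean of WT replicates 1 and 2, within 0.01, for 18016 of 18019 genes, while the labelled groups matched 495. The labels were followed here, and log2 fold changes without WT replicate 2 and without WT replicate 3 are given beside the main ones.

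The isolates held endothelial and other cells. Of the defining endothelial markers, Cdh5 was at 1091 and 1010 TPM (a deposited unit that also divides by gene length) in TET2KO and at 523, 303 and 770 TPM in WT, and Pecam1 was at 574 and 585 TPM in TET2KO and at 363, 176 and 440 TPM in WT. Ptprc, the leukocyte antigen CD45, was also present, at 240 and 232 TPM in TET2KO and at 289, 173 and 259 TPM in WT. The 15 endothelial markers together took 0.611% and 0.614% of counts in TET2KO, against 0.355%, 0.212% and 0.440% in WT. In such bulk samples, fewer cells of a type and less RNA per cell cannot be told apart.

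TET2 acts on methylated cytosine, which in mammals lies mostly at CpG. The start-site windows of 3 members are therefore shown first, Npr1 with many CpG and Npr3 and Gucy1b1 with fewer. DNA methylation was not measured in these libraries. The RefSeq table of GRCm38.p6 held windows of 300 bases, from 250 before to 50 after the start, for 9 of the 10 members. Each is printed 5′ to 3′ on the strand of the gene, with CG in capitals; CG reads the same on both strands.
Npr1: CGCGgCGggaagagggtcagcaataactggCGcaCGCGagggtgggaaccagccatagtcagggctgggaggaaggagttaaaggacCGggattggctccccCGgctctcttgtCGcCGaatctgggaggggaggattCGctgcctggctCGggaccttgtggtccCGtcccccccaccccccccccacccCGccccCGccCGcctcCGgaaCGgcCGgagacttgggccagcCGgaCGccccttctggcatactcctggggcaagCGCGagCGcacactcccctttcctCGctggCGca
Npr3: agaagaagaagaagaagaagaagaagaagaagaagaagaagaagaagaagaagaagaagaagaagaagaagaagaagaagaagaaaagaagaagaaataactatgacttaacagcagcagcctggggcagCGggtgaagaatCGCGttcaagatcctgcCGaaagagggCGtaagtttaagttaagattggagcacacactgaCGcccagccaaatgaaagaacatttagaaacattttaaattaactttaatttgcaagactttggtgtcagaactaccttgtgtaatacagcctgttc
Gucy1b1: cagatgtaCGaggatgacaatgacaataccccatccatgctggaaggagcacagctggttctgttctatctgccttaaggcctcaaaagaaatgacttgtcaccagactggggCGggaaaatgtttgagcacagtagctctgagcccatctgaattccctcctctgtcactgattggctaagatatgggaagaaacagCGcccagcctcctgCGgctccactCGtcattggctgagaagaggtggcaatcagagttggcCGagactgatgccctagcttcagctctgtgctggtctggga

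The Npr1 window (chr3:90465817-90466116, minus strand) held 26 CG and was 69.7% G or C. The Npr3 window (chr15:11907322-11907621, minus strand) held 6 CG, was 39.0% G or C and began with a long run of AAG repeats. It lay wholly upstream of the Npr3 gene as counted, which is annotated up to base 11907287. This window therefore does not cover the annotated start of the counted gene. The Gucy1b1 window (chr3:82074662-82074961, minus strand) held 6 CG and was 52.3% G or C. Among all 32851 mouse windows in the table, 94.6% held at least 1 CG, with a median of 7 and quartiles of 3 and 20, so the Npr1 window lay above the upper quartile and those of Npr3 and Gucy1b1 between the quartiles. Windows not shown held 23 CG for Pde5a, 14 and 15 for Gucy1a1, 13 for Npr2 and 12 for Ddah2. Prkg1 had windows with 10 and 20 CG, and Pde2a had windows with 3 to 29.

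Across the pathway, 9 of the 10 genes were higher in both libraries labelled TET2KO than in all 3 labelled WT. The exception was Pde2a. Over all genes tested, 12.4% were higher in this way. The median log2 fold change of the 10 genes was 0.82, against -0.08 over all genes tested, and 9 were above 0, against 41.6% of all genes. None of the 10 passed an adjusted p of 0.05 by edgeR, nor did any of the 18727 genes (0%). At an unadjusted p under 0.05, 6 of the 10 were higher, against 5.32% of all genes. DESeq2 called none of the 10 and 0.326% of all genes as higher, and limma-voom called no gene. These 10 genes were chosen with results of these libraries known, so the counts are a description.

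**Figure D1:**
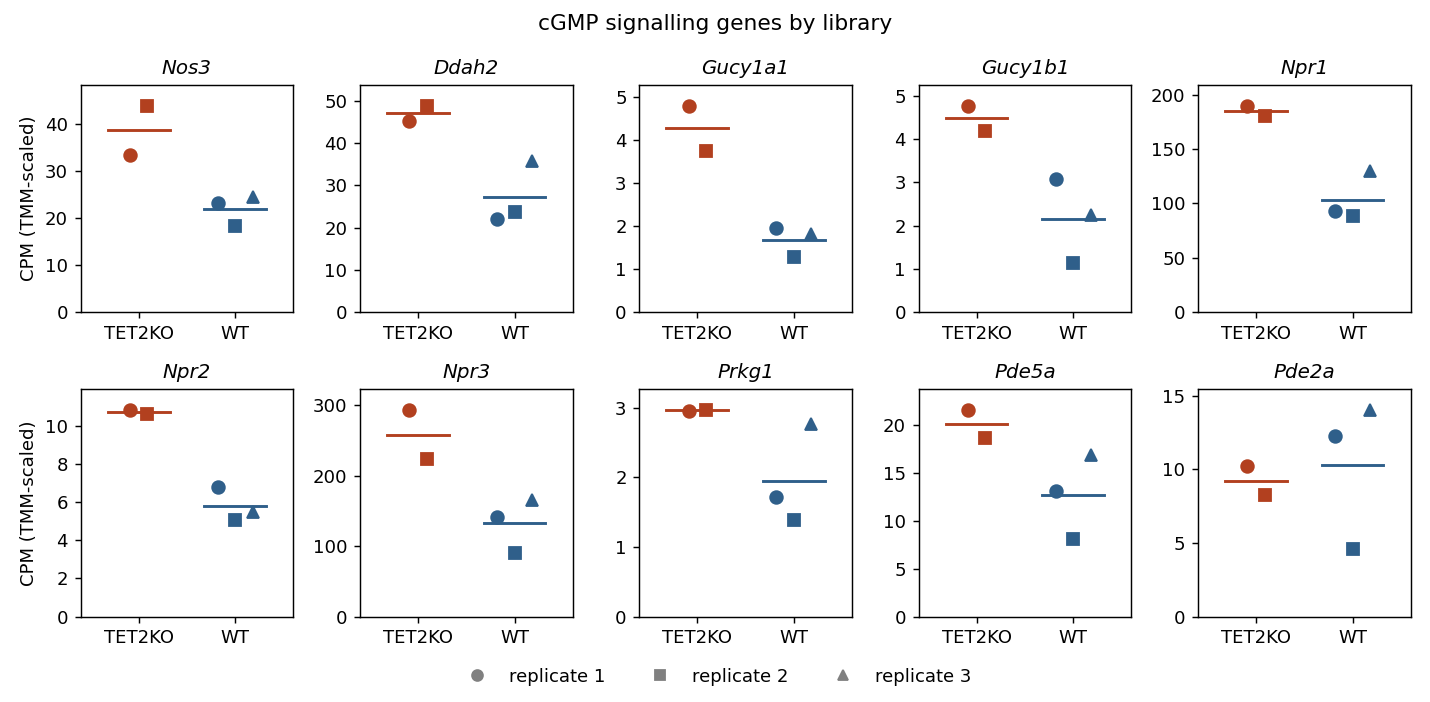
CPM (TMM-scaled) of the 10 genes in each library, TET2KO left of WT; each panel has its own axis from 0, points are libraries marked by replicate number and lines are group means. Both TET2KO points lie above all WT points in 9 panels, and Pde2a is the panel in which they overlap.

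The genes of nitric oxide production were both higher in the TET2KO libraries without passing the adjusted threshold. Nos3 (ENSMUSG00000028978, GRCm38 chr5:24364810-24384474, plus strand), the endothelial nitric oxide synthase, had 33.4 and 44.0 CPM in TET2KO, against 23.4, 18.4 and 24.5 CPM in WT. The groups did not overlap, and the difference between the TET2KO libraries was larger than the gap between the groups. Its mean was 38.7 ± 7.48 CPM in TET2KO (SD, n = 2) and 22.1 ± 3.25 CPM in WT (SD, n = 3). On the log2 scale TET2KO was higher by 0.81 ± 0.21 (SE; edgeR unadjusted p = 0.010, adjusted p = 0.740), by 0.72 without WT replicate 2 and by 0.92 without WT replicate 3. The antisense gene Gm15587 shares 1040 of the 4132 exon bases of Nos3 and had 31 to 89 counts per library, against 544 to 1405 for Nos3. It is unknown whether the counting used the strand, so reads from the shared stretch cannot be told apart. The protein-coding gene Atg9b, on the opposite strand, shares 294 exon bases of Nos3 and had 13 to 43 counts per library. Smaller antisense overlaps lie in Npr1, where Gm16048 shares 559 of 4783 exon bases, and in Npr2, where Gm12473 shares 266 of 4667. Also on the opposite strand, Gm5144 shares 321 of 9389 exon bases of Npr3, and 4930447N08Rik shares 55 of 9831 of Pde5a.

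Ddah2 (ENSMUSG00000007039, chr17:35059035-35062095, plus strand) belongs to the family that degrades asymmetric dimethylarginine, a natural inhibitor of nitric oxide synthases, although the activity of Ddah2 itself is debated. It had 45.3 and 48.9 CPM in TET2KO, against 22.2, 23.7 and 35.8 CPM in WT. WT replicate 3 lay between the other WT libraries and the TET2KO libraries. Its log2 fold change was 0.79 ± 0.25 (SE; edgeR adjusted p = 0.759), 0.72 without WT replicate 2 and 1.07 without WT replicate 3. Its paralogue Ddah1, the established enzyme of this reaction, was on a wider list of pathway genes. Ddah1 had 17.9 and 19.2 CPM in TET2KO, against 11.2, 9.26 and 14.2 CPM in WT (log2 fold change 0.68 ± 0.23, SE; edgeR adjusted p = 0.792). With WT replicate 2 left out it was 0.57, with WT replicate 3 left out 0.89, and it was -0.08 when scaled on endothelial markers. The Ddah1 to Ddah2 ratio in TPM was 0.158 and 0.157 in TET2KO and 0.203, 0.156 and 0.158 in WT, so the groups overlapped (exact two-sided permutation p = 0.8).

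Both subunits of soluble guanylyl cyclase were higher in the TET2KO libraries, and Gucy1a1 had the largest log2 fold change of the 10 genes. Gucy1a1, the alpha subunit (ENSMUSG00000033910, chr3:82092427-82145789, minus strand), had 4.80 and 3.76 CPM in TET2KO, against 1.96, 1.28 and 1.81 CPM in WT. These values rest on 159 and 120 counts in TET2KO and 56, 38 and 57 counts in WT, and the lowest TET2KO library was well above the highest WT library. Relative to WT, the log2 fold change was 1.34 ± 0.31 (SE; edgeR unadjusted p = 0.00589, adjusted p = 0.740), 1.21 without WT replicate 2 and 1.43 without WT replicate 3. By DESeq2 its adjusted p was 0.0534, the lowest of any member under any of the 17 alternatives.

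Gucy1b1, the haem-binding beta subunit (ENSMUSG00000028005, chr3:82032006-82074689, minus strand), lies 17737 bases from Gucy1a1 on the same strand. It had 4.77 and 4.19 CPM in TET2KO, against 3.08, 1.15 and 2.25 CPM in WT. The WT libraries spread widely, with WT replicate 2 lowest at 34 counts. The log2 fold change was 1.05 ± 0.44 (SE; edgeR adjusted p = 0.864), 0.78 without WT replicate 2 and 1.12 without WT replicate 3. The TPM ratio of alpha to beta subunit was 0.567 and 0.505 in TET2KO, within the WT values of 0.359, 0.630 and 0.452 (exact two-sided permutation p = 0.6).

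The 3 natriuretic peptide receptors were all higher in the TET2KO libraries, with log2 fold changes of 0.84 to 0.96. Npr1, the receptor for atrial and B-type natriuretic peptide (ENSMUSG00000027931, chr3:90450591-90465866, minus strand), had 190 and 180 CPM in TET2KO, against 92.9, 88.1 and 130 CPM in WT. The TET2KO libraries lay close together and WT replicate 3 was the highest of WT. Its log2 fold change was 0.84 ± 0.21 (SE; edgeR unadjusted p = 0.00891, adjusted p = 0.740), 0.76 without WT replicate 2 and 1.06 without WT replicate 3. Npr2, the receptor for C-type natriuretic peptide (ENSMUSG00000028469, chr4:43631935-43651244, plus strand), had 10.8 and 10.6 CPM in TET2KO, against 6.79, 5.07 and 5.46 CPM in WT. The gap between the groups was larger than the spread within either one, and the log2 fold change was 0.89 ± 0.22 (SE; edgeR adjusted p = 0.740), 0.84 without WT replicate 2 and 0.89 without WT replicate 3.

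Npr3, the clearance receptor (ENSMUSG00000022206, chr15:11839896-11907287, minus strand), had 293 and 223 CPM in TET2KO, against 141, 90.4 and 165 CPM in WT. It was the most counted of the 10 genes and varied within both groups. Its log2 fold change was 0.96 ± 0.29 (SE; edgeR unadjusted p = 0.0181, adjusted p = 0.743), 0.78 without WT replicate 2 and 1.19 without WT replicate 3. The balance of clearance to signalling receptor did not separate the groups: the Npr3 to Npr1 ratio in TPM was 1.07 and 0.853 in TET2KO and 1.05, 0.708 and 0.880 in WT (difference of log2 ratios 0.14, exact two-sided permutation p = 0.6). The Npr2 to Npr1 ratio was 0.0585 and 0.0602 in TET2KO, within the WT values of 0.0750, 0.0589 and 0.0431 (exact two-sided permutation p = 0.9).

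Prkg1, the cGMP-dependent kinase of vascular cells (ENSMUSG00000052920, chr19:30564489-31765033, minus strand), had the lowest level of the pathway in TET2KO and the smallest log2 fold change among the 9 genes above 0. It had 2.96 and 2.97 CPM in TET2KO, against 1.72, 1.38 and 2.76 CPM in WT. WT replicate 3 was close to the TET2KO libraries and the other WT libraries were lower. Its log2 fold change was 0.60 ± 0.37 (SE; edgeR adjusted p = 0.864), 0.42 without WT replicate 2 and 0.97 without WT replicate 3.

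Of the phosphodiesterases, Pde5a was higher in both TET2KO libraries and Pde2a overlapped between the groups. Pde5a, which hydrolyses cGMP alone (ENSMUSG00000053965, chr3:122728947-122859374, plus strand), had 21.6 and 18.6 CPM in TET2KO, against 13.1, 8.07 and 16.9 CPM in WT. The log2 fold change was 0.67 ± 0.33 (SE; edgeR adjusted p = 0.864), 0.45 without WT replicate 2 and 0.96 without WT replicate 3. Pde2a, which cGMP activates and which hydrolyses both cGMP and cAMP (ENSMUSG00000110195, chr7:101421691-101512827, plus strand), had 10.2 and 8.26 CPM in TET2KO, against 12.3, 4.59 and 14.0 CPM in WT. WT replicate 2 was below and the other WT libraries were above both TET2KO libraries. The log2 fold change was -0.16 ± 0.49 (SE; edgeR adjusted p = 0.950), and its sign depended on the libraries, at -0.49 without WT replicate 2 and 0.17 without WT replicate 3. Gm45837, annotated on the same strand, shares 3955 of the 6149 exon bases of Pde2a, so reads there could belong to either gene. Gm45837 had 18 to 39 counts per library, against 136 to 442 for Pde2a. How shared reads were counted is unknown, which limits the TPM level of Pde2a and its ratio to Pde5a.

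The Pde2a to Pde5a ratio in TPM was 0.755 and 0.709 in TET2KO, against 1.50, 0.910 and 1.33 in WT. Both TET2KO libraries were below all WT libraries, with a difference of log2 ratios of -0.74. The exact two-sided permutation p was 0.2, and 0.9 after Benjamini-Hochberg adjustment over the 5 ratios tested. With 2 libraries against 3 the smallest possible p is 0.1, so none of these ratios could have passed 0.05.

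On the deposited TPM scale, which divides by gene length, the natriuretic peptide receptors Npr1 and Npr3 were the most abundant transcripts of the pathway. In TET2KO they averaged 141 ± 5.22 and 136 ± 26.4 TPM (SD, n = 2), followed by Ddah2 at 108 ± 5.65 TPM and Nos3 at 34.2 ± 6.59 TPM. The remaining 6 genes averaged between 8.39 TPM (Npr2) and 1.39 TPM (Prkg1). In TET2KO, Npr1 and Npr3 were the one neighbouring pair in this order whose libraries overlapped. In WT, Npr1 at 69.6 ± 21.9 TPM, Npr3 at 62.3 ± 24.7 TPM and Ddah2 at 54.8 ± 19.2 TPM (SD, n = 3) overlapped, and Nos3 followed at 17.2 ± 4.76 TPM. Pde2a, Pde5a and Npr2 came next in WT, at 5.57, 4.22 and 3.98 TPM, and overlapped. Gucy1b1 at 1.82 TPM, Prkg1 at 0.814 TPM and Gucy1a1 at 0.784 TPM ended the order.

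The order of the libraries was similar in most of the 10 genes, and such orders were not counted over all genes. The share of counts of the endothelial markers was lowest in WT replicate 2 (0.212%) and, within WT, highest in WT replicate 3 (0.440%). The capillary lists did not share 1 order. General capillary markers took 0.254%, 0.394% and 0.342% in WT replicates 1, 2 and 3, with WT replicate 2 the highest of WT. Aerocyte markers took 0.116%, 0.0706% and 0.0997%, with WT replicate 2 lowest. WT replicate 2 was the lowest of all libraries in 9 of the 10 genes, WT replicate 3 was the highest WT library in 7, and TET2KO replicate 1 was above TET2KO replicate 2 in 7. The median over the 10 genes of centred log2 CPM was 0.55 and 0.50 in TET2KO, against -0.24, -0.78 and -0.01 in WT.

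Endothelial markers were also higher in the libraries labelled TET2KO. All 15 endothelial markers had a log2 fold change above 0, with both TET2KO libraries above all WT libraries, and their median was 0.75. The median was 0.73 for both the 8 general capillary markers, of which 7 were above 0, and the 8 aerocyte markers, of which all were. Per 1000 counts of the 15 endothelial markers, 8 of the 10 pathway genes overlapped between the groups. Npr1 had 32.9 and 31.3 such counts in TET2KO, against 27.3, 34.7 and 30.0 in WT, and Nos3 had 5.79 and 7.62 in TET2KO, against 6.87, 7.23 and 5.66 in WT. Npr3 had 50.9 and 38.7 in TET2KO, against 41.6, 35.6 and 38.2 in WT. On this scale the groups of these 3 genes overlapped, whereas in CPM they did not.

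**Figure D2:**
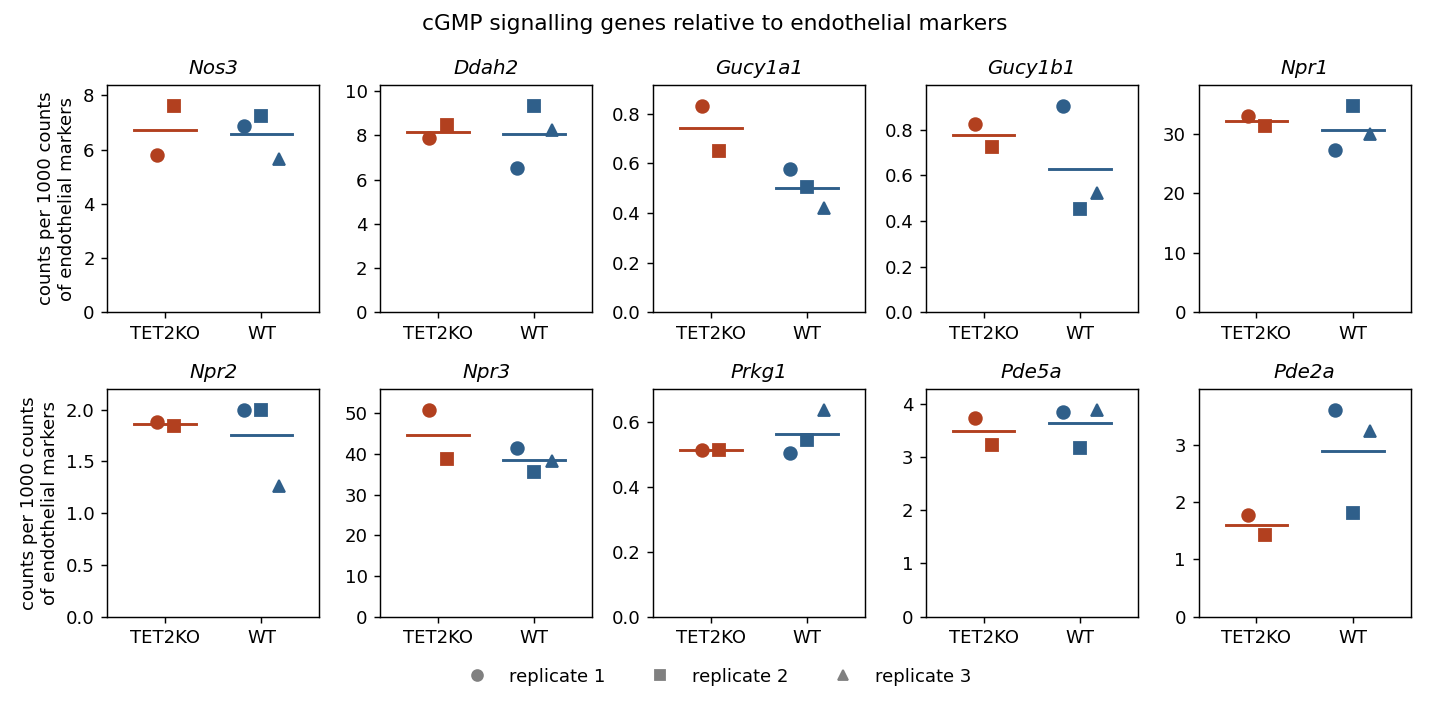
Counts of each gene per 1000 counts of the 15 endothelial markers in each library, TET2KO left of WT; axes start at 0 and lines are group means. Gucy1a1 is the panel with both TET2KO points above all WT points, Pde2a is the panel with both below, and 8 panels overlap.

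Gucy1a1 was the one gene that stayed above, at 0.833 and 0.651 counts per 1000 in TET2KO, against 0.577, 0.505 and 0.418 in WT. Over all genes tested, 0.94% lay above in this way. Pde2a lay below, at 1.77 and 1.43 in TET2KO, against 3.61, 1.81 and 3.24 in WT, as did 58.1% of all genes. When edgeR was run with library sizes set by the endothelial markers, the median over all genes tested was shifted to -0.88 and that of the 10 pathway genes to 0.05. The log2 fold changes were then 0.57 ± 0.35 for Gucy1a1 (SE; edgeR unadjusted p = 0.149), 0.31 ± 0.41 for Gucy1b1, 0.22 ± 0.28 for Npr3, 0.07 ± 0.28 for Npr1 and 0.03 ± 0.30 for Nos3. Prkg1 at -0.13 ± 0.34, Pde5a at -0.06 ± 0.30 and Pde2a at -0.85 ± 0.40 (edgeR unadjusted p = 0.0730) were below 0. Npr2 was at 0.09 ± 0.35 and Ddah2 at 0.02 ± 0.30. This scaling lowered genes across the table alike, and every member but Gucy1a1 and Pde2a then lay within 1 SE of 0.

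**Figure D3:**
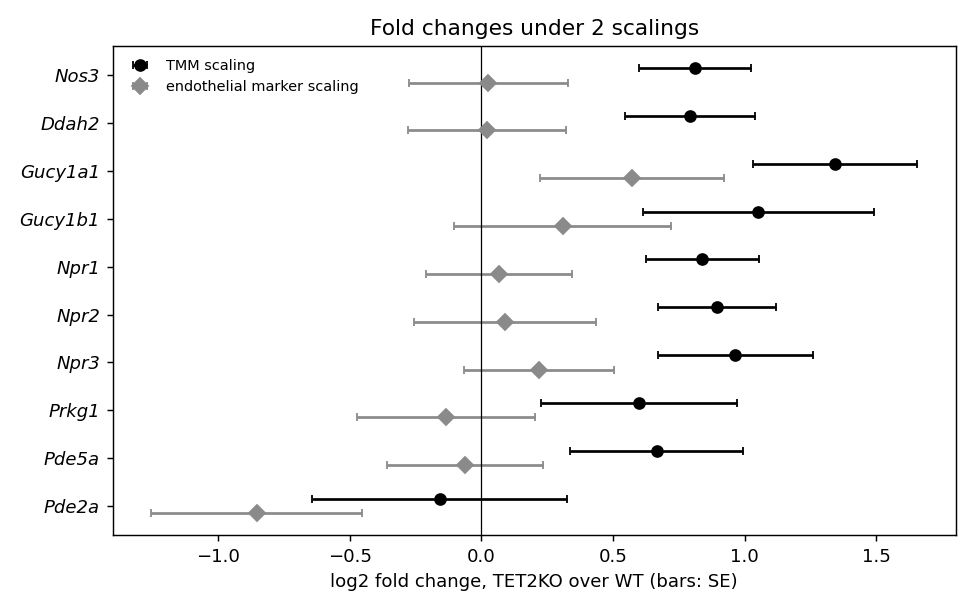
Log2 fold change, TET2KO over WT, of the 10 genes with TMM scaling and with library sizes set by endothelial marker counts; bars are SE. Under endothelial scaling the estimates lie between -0.85 (Pde2a) and 0.57 (Gucy1a1), against -0.16 to 1.34 under TMM.

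Markers of other cells that express parts of this pathway were counted as well, and their part in the result was not tested. The 14 smooth muscle and pericyte markers, from cells in which Gucy1a1, Gucy1b1, Prkg1 and Pde5a are well known, summed to 0.00294% and 0.00286% of counts in TET2KO and to 0.00228%, 0.00278% and 0.00189% in WT. Of the 10 that were tested, 9 were above 0, and none of the list was at 0 in every library. The exception was Cspg4 (log2 fold change -1.21 ± 1.09, SE), with 120 and 87 counts in TET2KO and 84, 526 and 42 counts in WT. Much of the sum in WT replicate 2 came from this gene. Acta2 was at 3.47 and 9.88 TPM in TET2KO and at 4.33, 6.35 and 3.33 TPM in WT. Myh11 was at 1.93 and 1.86 TPM in TET2KO and at 1.15, 0.685 and 1.56 TPM in WT. Pdgfrb was at 2.74 and 2.40 TPM in TET2KO and at 1.86, 1.07 and 1.02 TPM in WT. The groups thus overlapped for Acta2 but not for Myh11 and Pdgfrb. In this list 3 markers had both TET2KO libraries above all WT libraries, against 12.4% of all genes. Fibroblast markers summed to 0.0145% and 0.0138% in TET2KO and to 0.0147%, 0.00559% and 0.00641% in WT, with 9 of 10 above 0. Platelet markers, from cells that also express soluble guanylyl cyclase and Pde5a, summed to 0.00602% and 0.00363% in TET2KO and to 0.00773%, 0.00101% and 0.00244% in WT, with all 8 above 0. Leukocyte markers ran the other way, at 0.913% and 0.990% in TET2KO and 1.28%, 1.91% and 1.03% in WT, with 1 of 10 tested above 0.

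Epithelial markers summed to 0.0919% and 0.186% in TET2KO and to 0.0948%, 0.0696% and 0.0448% in WT, with 7 of 8 above 0. All 6 cardiomyocyte and all 5 mesothelial markers had log2 fold changes above 0, with medians of 1.33 and 1.68. These lists took at most 0.00192% and 0.00420% of counts in any library.

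A wider list held 65 other genes of cGMP signalling, with log2 fold changes on both sides of 0. Of these, 51 were tested, and 22 had a log2 fold change above 0 and 29 below, with a median of -0.10. None passed an adjusted p of 0.05 by edgeR. At an unadjusted p under 0.05, 6 were higher, against 5.32% of all genes, and 1 was lower, against 0.534%. Of the 6, 2 (Prkg2 and Trpc6) passed the filter on low counts through the TET2KO libraries alone, so they had to differ. Both TET2KO libraries were above all WT libraries for 10 genes and below for 5, against 12.4% of all genes in each direction. The 10 genes above include Prkg2 and Trpc6, whose place was likewise fixed by the filter.

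**Figure D4:**
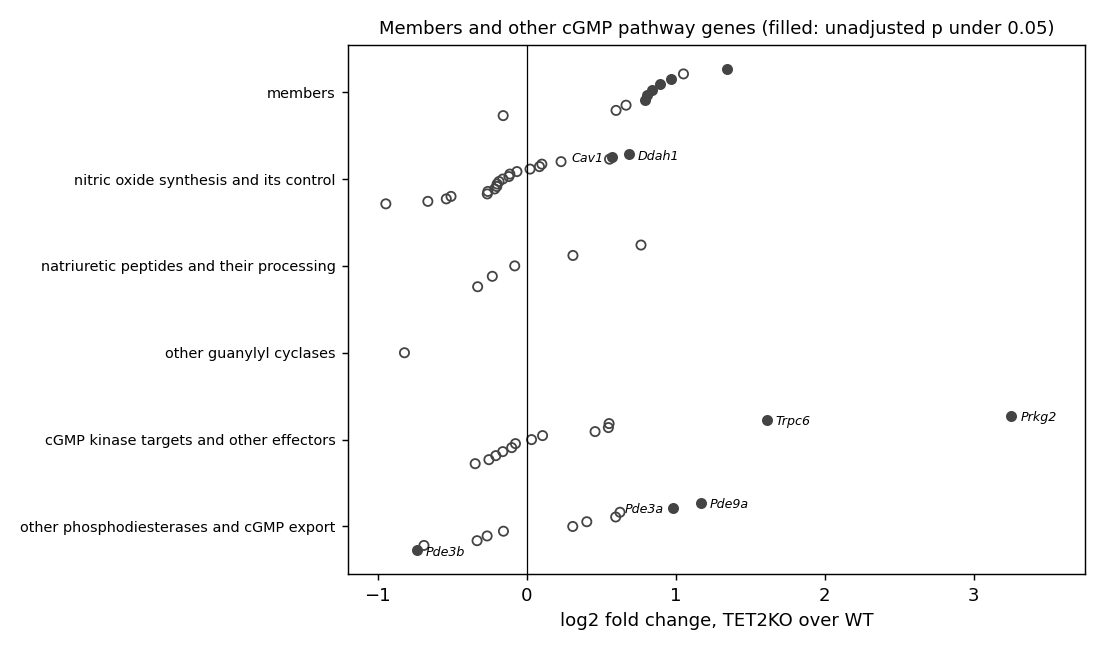
Log2 fold change, TET2KO over WT, of the 10 genes (top row) and of the 51 tested genes of the wider list by role; filled points have an unadjusted edgeR p under 0.05 and, outside the top row, are named. The members lie mostly to the right of 0, while the wider groups lie on both sides.

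In nitric oxide synthesis and its control, 7 of 21 tested genes were above 0, with a median of -0.16. Cav1, the caveolin that binds and inhibits Nos3, had 479 and 554 CPM in TET2KO, against 288, 371 and 381 CPM in WT (log2 fold change 0.57 ± 0.21, SE; edgeR adjusted p = 0.812). With WT replicate 2 left out it was 0.65, with WT replicate 3 left out 0.68, and it was -0.25 when scaled on endothelial markers. Nos2, the inducible synthase, had 4.53 and 2.82 CPM in TET2KO, within the WT values of 2.87, 1.69 and 4.83 CPM. Nos1, the neuronal synthase, had at most 2 counts in any library and was not tested.

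The ligands of the natriuretic receptors had few counts in every library. Nppa, which encodes atrial natriuretic peptide, had 21 and 17 counts in TET2KO and 16, 13 and 13 counts in WT. Nppb, which encodes B-type natriuretic peptide, had 17 and 6 counts in TET2KO and 3, 2 and 2 counts in WT, a ratio of summed counts over summed TMM-scaled totals of 4.53 with a 95% interval of 1.88 to 12.5 that covers counting error only. Most of these counts came from TET2KO replicate 1, and without it the ratio was 2.40. Nppc had 4 and 2 counts in TET2KO and 0, 2 and 2 counts in WT. Corin, the protease that activates atrial natriuretic peptide, had 29 and 26 counts in TET2KO, within the WT values of 37, 11 and 32 counts.

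Among kinase targets and other effectors, 7 of 13 tested genes were above 0, with a median of 0.03. Prkg2, the membrane-bound cGMP kinase, had 13 and 10 counts in TET2KO and 1 count in each WT library. The ratio was 10.6 with a 95% interval of 3.19 to 54.9 for counting error. Trpc6, a cation channel that cGMP kinase phosphorylates, had 14 and 11 counts in TET2KO, against 5, 3 and 3 counts in WT, a ratio of 3.13 with an interval of 1.49 to 7.05. Neither gene reached the filter's floor in any WT library, so these ratios are a description and support nothing.

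The other phosphodiesterases and exporters split in direction, with 6 of 11 above 0 and a median of 0.31. Pde9a, a high-affinity cGMP phosphodiesterase, had 65.6 and 58.8 CPM in TET2KO, against 29.6, 22.7 and 30.9 CPM in WT. The log2 fold change was 1.17 ± 0.19 (SE; edgeR adjusted p = 0.740, DESeq2 adjusted p = 0.00698), and it was the one gene of the wider list that DESeq2 called. Its log2 fold change was 1.07 without WT replicate 2 and 1.28 without WT replicate 3. When scaled on endothelial markers it was 0.39 ± 0.28 (SE; edgeR unadjusted p = 0.216). Pde3a, a cAMP phosphodiesterase that cGMP inhibits, had 175 and 157 CPM in TET2KO, against 62.0, 59.5 and 131 CPM in WT. WT replicate 3 lay between the other WT libraries and the TET2KO libraries, and the log2 fold change was 0.98 ± 0.38 (SE; edgeR adjusted p = 0.841). This estimate was 0.80 without WT replicate 2 and 1.48 without WT replicate 3. In the authors' deposited table, which groups WT replicate 3 with TET2KO, Pde3a was at 1.37 with an adjusted p of 2.48e-05. Pde3b, a relative of Pde3a, ran the other way, with 127 and 104 CPM in TET2KO, against 207, 189 and 181 CPM in WT (log2 fold change -0.74 ± 0.17, SE; edgeR adjusted p = 0.740). That value was -0.72 without WT replicate 2 and -0.75 without WT replicate 3. With endothelial scaling, which lowered the median of all genes to -0.88, Pde3b was at -1.56 ± 0.36 (SE).

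The genes whose pattern over the 5 libraries was most like that of a member were taken from 10149 genes with a mean log2 CPM of at least 3. For Npr1 these were Phactr1, Gm29237, Tie1, Rbfox2 and Fnbp1l, with root mean square differences in centred log2 CPM of 0.0313 to 0.0458. For Nos3 they were Stmn2, Nckap1, Camk2n1, Tmem100 and Rtl8a, at 0.0439 to 0.0673. Tie1 is on the list of endothelial markers. The 5 values of each gene share library depth and composition.

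In the authors' deposited table, whose fold changes place WT replicate 3 with the TET2KO libraries, Ddah2 had a log2 fold change of 0.94 with an adjusted p of 0.0233, and Npr1 had 0.90 with an adjusted p of 0.0412. These were the 2 members past 0.05 in the authors' deposited table, in which 1.45% of the genes with an adjusted p were called as higher. Pde2a was at 0.38 and Gucy1a1 at 1.11 in the authors' deposited table, with adjusted p-values of 0.756 and 0.251.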

How the data were processed

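Poly(A) RNA-seq libraries of 2 TET2KO and 3 WT lung endothelial isolates were compared. Tools named in the submitters' processing notes are STAR 2.5.2b, Trimmomatic 0.36, DESeq2 and Subread 1.5.2 with featureCounts, on build GRCm38. The deposited tables held unnormalized counts for each gene and TPM values, which are scaled by gene length and library total. Per the file headers, the authors' comparison table held log2 fold changes, p-values and a normalized signal per library (counts divided by size factors). A shorter table of the authors' selected genes was not used here.

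Counts were tested with edgeR 4.0.16 in R 4.3.3 (quasi-likelihood F test, TMM scaling, filterByExpr, genotype only). P-values were adjusted by Benjamini-Hochberg over 18727 genes. SE was taken as log2 fold change over root F. CPM used TMM-scaled totals. The common biological coefficient of variation was 0.339. The labels do not say that libraries came from separate animals, so p-values measure the spread between these libraries, which may be technical. TPM ratios were tested by exact permutation. Alternatives were DESeq2 1.42.0, limma 3.58.1, other scalings (endothelial marker counts included) and filters, log2(TPM + 1) and log2(TPM + 0.1), a replicate block and each library left out. The edgeR and limma-voom fits were run on simulated counts, where the median log2 fold change had to be near the value set. That check set no condition on p-values or calls, and it left out DESeq2 and the permutation test.

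The members, gene lists and alternatives were chosen with earlier results of these data known. Named beside the members were Nos1, Nos2, Nppa, Nppb, Nppc, Corin and Ddah1, up to 10 wider-list genes with the smallest edgeR p under 0.05, the 5 genes most like Nos3 and Npr1, and defining markers. Cspg4 was named for its count in WT replicate 2. Itgam, with 2 rows, was left out of list sums. The wider list held 65 genes, of which Irag1 and Irag2 were listed under their older symbols, Mrvi1 and Lrmp.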

Additional observations from a re-analysis of the deposited data

How the results depend on the processing

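Of the 10 pathway genes, none passed an adjusted p of 0.05 under any of the 17 alternatives; over these the adjusted p ran from 0.0534 (Gucy1a1, DESeq2) to 1.00. DESeq2 called 1 wider-list gene, Pde9a. With endothelial scaling the median of the 10 genes moved to 0.047, and Prkg1 (-0.13) and Pde5a (-0.063) reversed; this setting lowered the median of all genes to -0.88. The same alternatives were applied to the log2 fold changes of Ddah1, Cav1, Pde9a, Pde3a and Pde3b after the data were seen: Ddah1 (-0.082) and Cav1 (-0.25) reversed with endothelial scaling. Pde2a reversed to 0.27 with the replicate block, 0.12 on log2(TPM + 1) and 0.19 on log2(TPM + 0.1), and ran from -0.49 to 0.17 with a library left out. With a library left out, the log2 ratio differences ran from -0.025 to 0.30 for Npr3/Npr1, from -0.16 to 0.24 for Npr2/Npr1 and from -0.19 to 0.00378 for Ddah1/Ddah2; Npr2/Npr1 was also -0.16 with the replicate block. The cause was not tested. The median of all genes was -0.08 with TMM, 0.06 with library totals, 0.01 with upper quartile factors, 0.11 on log2(TPM + 1) and 0.18 on log2(TPM + 0.1).

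Deviations of same-numbered libraries from their group mean correlated at 0.220 and 0.493 for 2 pairs, and the labels tie the numbers to nothing shared. The deviations of the 2 TET2KO libraries are equal and opposite, so these correlations are not independent. The lowest adjusted p with the replicate block was 0.130. The other fold changes of the 10 genes and of these 5, and the other differences in log2 ratio, kept their direction under the alternatives run. The counts of genes whose groups do not overlap were recomputed per endothelial marker count, as given above, and under no other alternative. Gucy1a1, Gucy1b1, Prkg1 and the peptide genes have few counts, which limits their precision.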
